A study of Mus musculus with 6 samples.

Results

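Lrrn1, Lrrn2, Lrrn3 and Lrrn4, which encode the neuronal leucine-rich repeat membrane proteins, and Pcdh8, which encodes a protocadherin, were followed through every probe set that the platform annotation gave to 1 of these symbols alone. This gave 8 of the 45101 probe sets of the array, namely 3 for Lrrn1, 2 for Pcdh8 and 1 each for Lrrn2, Lrrn3 and Lrrn4. Expression was measured in mandibular arches of C57BL/6 mouse embryos at E10.5 with Affymetrix Mouse Genome 430 2.0 arrays, of which 3 carried the label Tbx1+/+ and 3 the label Tbx1-/-, a genotype that by its label lacks the T-box transcription factor Tbx1 on both alleles. Tissue from 3 embryos was pooled by genotype, and it is not stated whether the arrays of a genotype came from separate pools, so errors and p-values measure the spread between these arrays, which may be technical. The values are log2 expression made by GCRMA, a method that subtracts a background estimated from probe sequence, brings the arrays to 1 distribution and combines each set into 1 value.

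Lrrn1, Lrrn2 and Lrrn3 span the membrane once and carry leucine-rich repeats, an immunoglobulin domain and a fibronectin domain outside the cell. This build is shared with many adhesion and guidance proteins of the nervous system. Lrrn1 is best known from the chick midbrain-hindbrain boundary, where it helps to keep neighbouring cell populations apart. Pcdh8, also called paraxial protocadherin or arcadlin, is a protocadherin outside the gene clusters, is expressed in segmenting paraxial mesoderm and in neurons, and can draw N-cadherin off the cell surface through the kinase Taok2. The mandibular arch at this stage is mostly neural crest mesenchyme around a core of mesoderm that gives rise to jaw muscle.

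Lrrn1 and Pcdh8 were chosen by their difference between the genotypes in earlier results of these arrays. Lrrn1 had the smallest p of the 16073 genes tested in limma (adjusted p = 0.00340), and Pcdh8 passed when the replicate number was a block (adjusted p = 0.0432) but not without it (adjusted p = 0.353). Without wild-type replicate 3 the adjusted p of Lrrn1 in limma was 0.0628. These values say how both genes came to be chosen. Their differences below are therefore a description and carry no test. Lrrn2, Lrrn3 and Lrrn4 were added as relatives of Lrrn1 by name. At the threshold of 0.05 for the adjusted p, 0.0373% of all genes tested were called in either direction, and 0.0622% with the block.

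Promoter sequence is shown for Lrrn1 and Pcdh8, since both read lower on the labelled-null arrays. It comes from RefSeq, build GRCm38.p6, where 4 of the 5 members were found. Each line gives the 250 bases before the annotated gene start, 5′ to 3′ on the gene's strand, and capitals mark matches to CANNTG, the E-box that basic helix-loop-helix factors such as Myf5 and Tcf21 bind.
Lrrn1, chr6:107529476-107529725, plus strand: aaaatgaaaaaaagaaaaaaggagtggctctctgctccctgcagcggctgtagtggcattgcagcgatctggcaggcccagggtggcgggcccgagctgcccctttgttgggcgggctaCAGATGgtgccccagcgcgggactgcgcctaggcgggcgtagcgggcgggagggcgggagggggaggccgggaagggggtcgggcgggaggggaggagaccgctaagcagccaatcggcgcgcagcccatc
Pcdh8, chr14:79771313-79771562, minus strand: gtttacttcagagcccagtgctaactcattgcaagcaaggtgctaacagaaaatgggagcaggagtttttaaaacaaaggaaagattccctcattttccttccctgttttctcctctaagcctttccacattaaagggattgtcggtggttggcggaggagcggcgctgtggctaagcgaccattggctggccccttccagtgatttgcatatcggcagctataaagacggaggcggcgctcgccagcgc

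The Lrrn1 window held 1 match to this motif at bases -131 to -126 from the start, with the letters CAGATG. The Pcdh8 window held 0 matches. Of the other members with an entry, Lrrn2 held 1 match (CAAGTG, bases -135 to -130) and Lrrn4 held 0. 66.2% of the 32851 promoters of the table hold the motif in a window of this length on either strand, so its presence is common. A further pair of E-boxes lay at the Lrrn1 start itself, in the 30 bases from -2 to 28, shown here because the first crosses the end of the window above and the other lies beyond it.
Lrrn1, chr6:107529724-107529753, plus strand: tCAGCTGaccgcttttgcttacacCAGGTG
The first of these, at bases -1 to 5, is CAGCTG, the form often bound by muscle determination factors, and 16.3% of promoters hold it in the 300 bases of the whole entry, which runs past the start. The T-box motif GGTGTGA was searched on both strands as well and had 0 matches in the entries of Lrrn1, Lrrn2, Lrrn4 and Pcdh8, against 3.98% of all promoters. These are matches of letters and do not show binding. The Lrrn1 window was rich in G and C (68.0%), that of Pcdh8 less so (51.2%, against a median of 52.4% over all promoters).

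Lrrn1 was read by 1 bright and 2 dim probe sets. The bright set, designed on a RefSeq mRNA, read 9.59, 9.32 and 9.49 on wild-type replicates 1, 2 and 3 and 7.95, 7.90 and 7.90 on labelled-null replicates 1, 2 and 3. The labelled-null arrays lay within 0.0577 of each other and all below the wild-type arrays, with a gap of 1.37 between the groups. Lrrn1 thus averaged 9.47 ± 0.14 (log2, SD, n = 3) in wild type and 7.92 ± 0.03 (SD, n = 3) in the labelled null, a difference of -1.55 (SE 0.10) or 2.93-fold. On average 82.2% of all probe sets read lower than this set on the wild-type arrays and 69.1% on the labelled-null arrays, so the transcript was well above the dim end of the array in both genotypes. With each array left out in turn the difference lay between -1.62 and -1.49, and without labelled-null replicate 3 it was -1.54. Of the genes tested, 5 had a lower difference.

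The 2 other Lrrn1 sets, both annotated to the same cDNA, were dim and gave smaller differences. The brighter of them read 3.89, 4.05 and 3.90 in wild type and 3.92, 3.86 and 3.62 in the labelled null. These groups overlapped, and the difference was -0.15. The dimmest set read 3.18, 3.23 and 3.12 against 2.94, 2.91 and 2.69, with no overlap and a difference of -0.33. Neither set exceeded the filter level of 4 on more than 1 array, and with values under 4 raised to 4 the dimmest set's difference was 0.

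Over the 6 arrays the bright Lrrn1 set correlated with the dim ones at r = 0.54 and 0.87, and the dim sets with each other at 0.87. After the genotype means were taken out these became -0.33 and -0.11 for the bright set and 0.96 between the dim sets. The points share their libraries, and after that step only differences between replicate arrays are left. In those differences the dim sets were closer to each other than to the bright set. Of the 8741 genes tested that had several probe sets, 24.5% had at least 1 below the filter, so having a dim set was not unusual. That share counts genes with any dim set, not only those whose other sets are all dim, as for Lrrn1. Averaging all 3 sets brought the Lrrn1 difference to -0.68 and its adjusted p in limma to 0.217. As Lrrn1 was chosen by this contrast, that p describes how its choice depended on the set used and is no test.

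**Figure D1:**
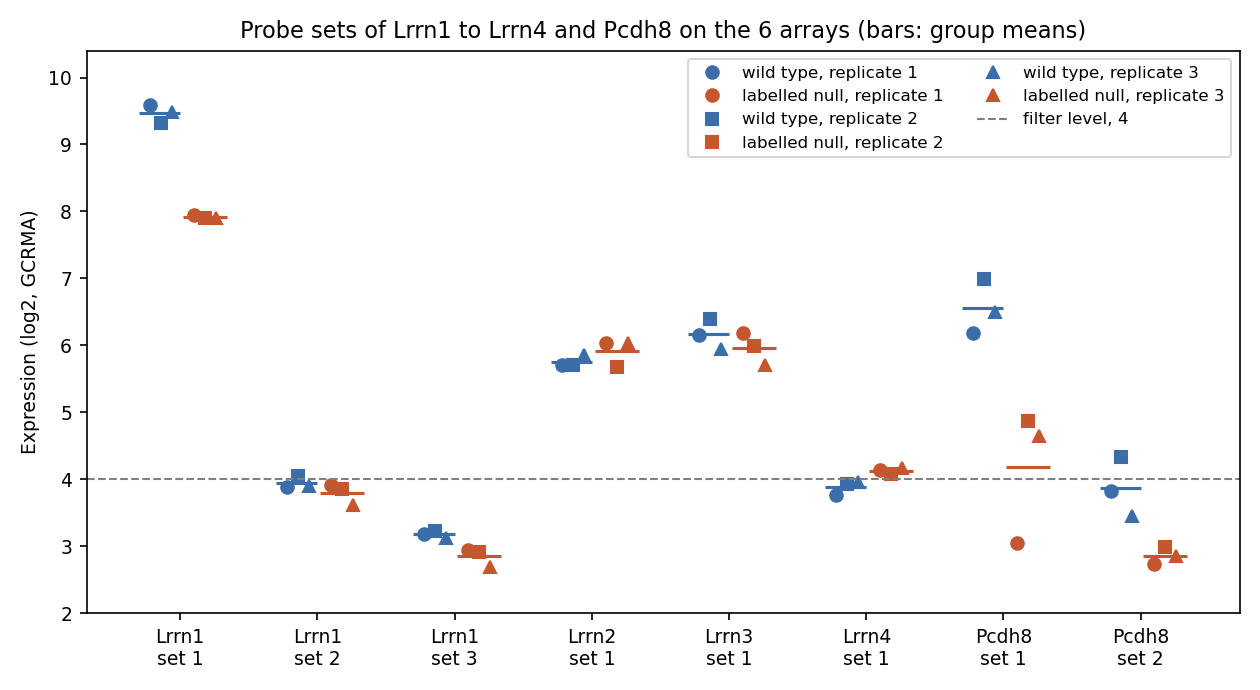
Log2 expression (vertical axis) of the 8 probe sets of Lrrn1 to Lrrn4 and Pcdh8, with sets of a gene numbered from the brightest. Each point is 1 array, bars are means of 3 arrays, and the dashed line is the filter level of 4; the bright Lrrn1 set and the brighter Pcdh8 set separate the genotypes by gaps of 1.37 and 1.32, while Lrrn2 and Lrrn3 overlap.

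Pcdh8 read lower on the labelled-null arrays on both of its probe sets. The brighter set read 6.18, 7.00 and 6.50 on wild-type replicates 1, 2 and 3 and 3.04, 4.86 and 4.65 on labelled-null replicates 1, 2 and 3. No labelled-null array reached the wild-type range, the gap being 1.32, but the labelled-null arrays spread over 1.82, with replicate 1 far below the others and under the filter level. The means were 6.56 ± 0.41 (log2, SD, n = 3) and 4.19 ± 1.00 (SD, n = 3), a difference of -2.37 (SE 0.44) or 5.18-fold, the lowest of all genes tested. In wild type 55.3% of all probe sets read lower on average, and in the labelled null 20.9%, so the size of the difference rests on values near background.

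By replicate number the Pcdh8 difference was -3.14, -2.13 and -1.85. Leaving out labelled-null replicate 1 gave -1.80, the nearest to 0 of the 6 omissions, and leaving out labelled-null replicate 2 gave -2.71, the farthest. Without labelled-null replicate 3 it was -2.60, and with values under 4 raised to 4 it was -2.05. The difference was negative under each of these settings, while its size depended on how the lowest value was treated.

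The dimmer Pcdh8 set, designed on a RefSeq mRNA, read 3.82, 4.33 and 3.45 in wild type and 2.73, 2.99 and 2.86 in the labelled null. Again the groups did not overlap, with a gap of 0.46 and a difference of -1.01. Wild-type replicate 2 alone exceeded 4, and raising low values to 4 left a difference of -0.11. Averaging both sets gave a Pcdh8 difference of -1.69. The sets agreed in direction, correlating at r = 0.89 over the 6 arrays and at 0.48 after the genotype means were taken out, and each was highest on wild-type replicate 2 and lowest on labelled-null replicate 1. The platform name of the brighter set ends in x_at, which marks sets with probes that can match other transcripts, and no source sequence is listed for it in the annotation.

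**Figure D2:**
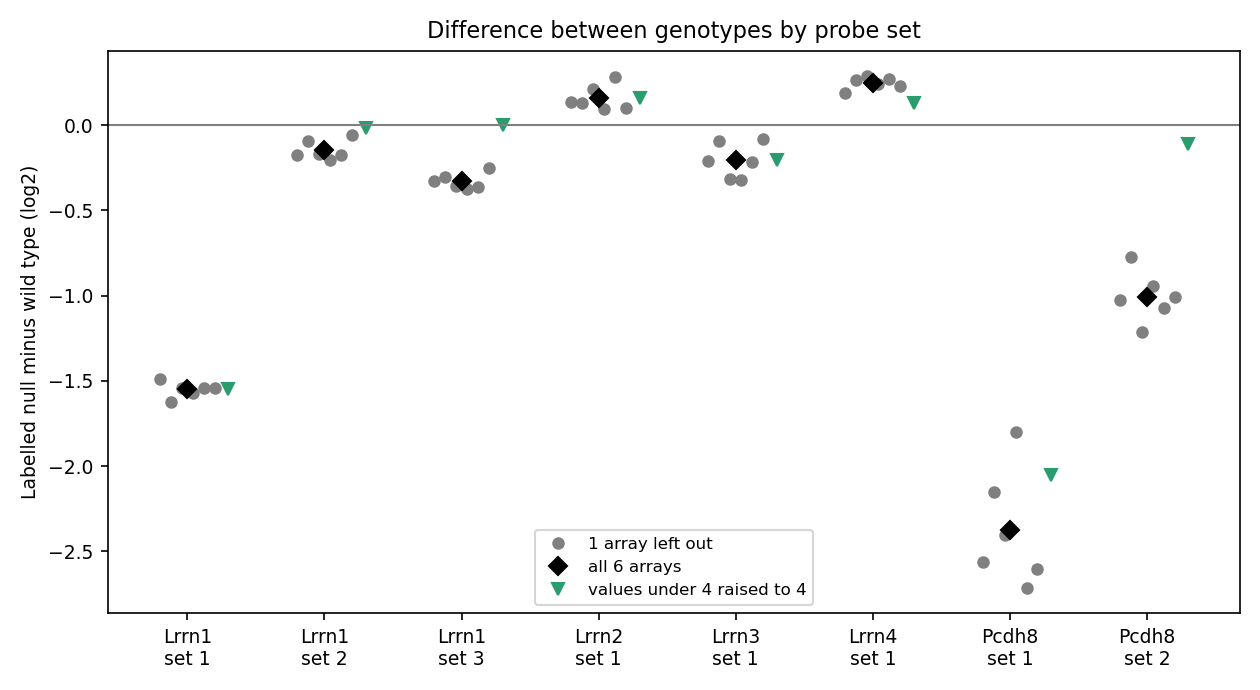
Labelled null minus wild type on the log2 scale (vertical axis) for each of the 8 probe sets. Diamonds use all 6 arrays, grey points leave out 1 array each and triangles raise values under 4 to 4; Lrrn1 set 1 stays between -1.62 and -1.49, Pcdh8 set 1 between -2.71 and -1.80, and Pcdh8 set 2 shrinks to -0.11 when low values are raised.

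The other Lrrn genes did not share the low reading of Lrrn1. Lrrn2 read 5.71, 5.70 and 5.86 in wild type and 6.04, 5.68 and 6.04 in the labelled null, with overlapping groups. Its difference was 0.16 (SE 0.14, 95% interval -0.15 to 0.47, adjusted p = 1.00 in limma), and 2 of the 3 replicate numbers had the higher value in the labelled null. With array weights it was 0.01, and with arrays left out it lay between 0.10 and 0.28.

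Lrrn3 read 6.15, 6.40 and 5.95 in wild type and 6.19, 5.98 and 5.71 in the labelled null, again with overlap. Its difference was -0.21 (SE 0.17, 95% interval -0.59 to 0.18, adjusted p = 1.00 in limma). It lay between -0.32 and -0.08 with arrays left out, the latter without labelled-null replicate 3. The intervals of Lrrn2 and Lrrn3 leave room for modest differences in either direction, but neither reaches the difference of the bright Lrrn1 set.

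Lrrn4 was at the filter level. It read 3.76, 3.92 and 3.96 in wild type and 4.14, 4.08 and 4.17 in the labelled null. All labelled-null arrays were above all wild-type arrays, by a gap of 0.12. It was tested only because the 3 labelled-null arrays exceeded 4, so a higher value there was a condition of its entering the fit. The difference was 0.25 (SE 0.11, 95% interval -0.01 to 0.50, adjusted p = 1.00 in limma). With that condition, neither the interval nor the p is read as a test.

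In all, 5 of the 8 probe sets passed the filter, 1 per gene. Groups did not overlap for 5 of the 8 sets, lower in 4 of them and higher in 1. Among all 34945 probe sets with 1 symbol, passing or not, the groups did not overlap for 6.55% in either direction, 3.43% lower and 3.12% higher. The 4 lower ones all belong to Lrrn1 and Pcdh8, which were chosen by this comparison, so nothing is read from that count.

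**Figure D3:**
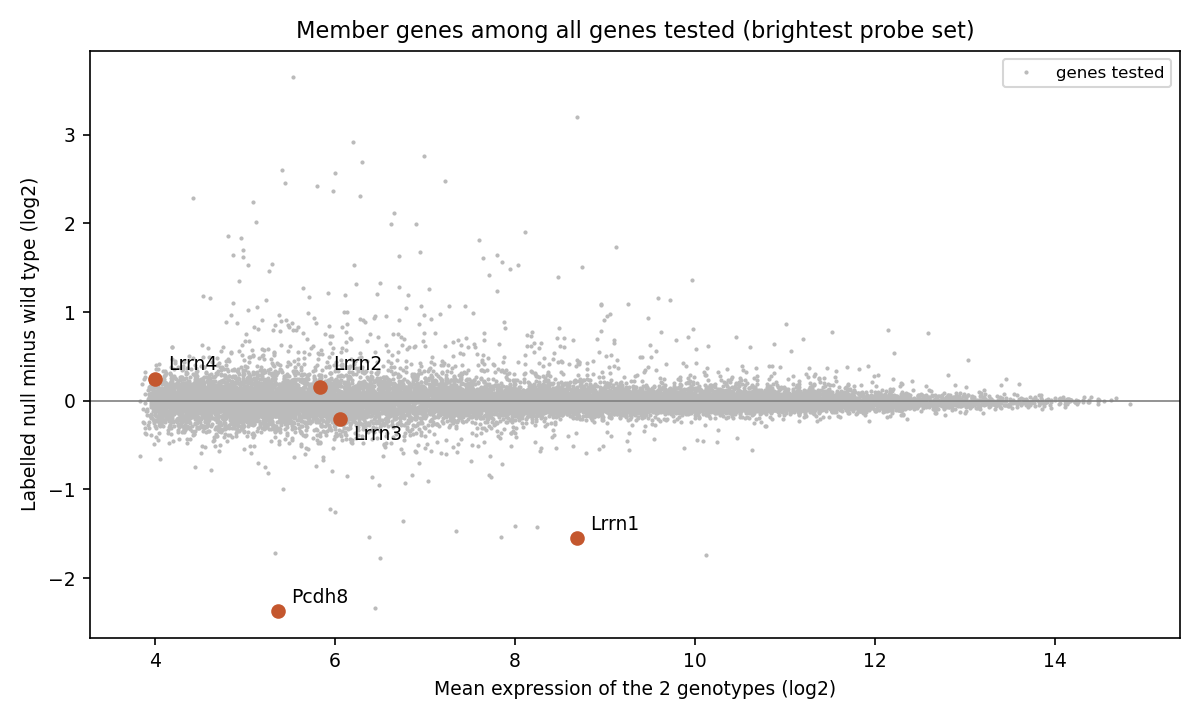
Labelled null minus wild type (vertical axis, log2) against the mean of both genotypes (horizontal axis, log2) for the brightest probe set of each of 16073 genes, with the 5 members named. Pcdh8 has the lowest difference of all and Lrrn1 the sixth lowest at a higher mean level, while Lrrn2, Lrrn3 and Lrrn4 are nearer 0. Of all genes tested, 90.4% and 4.94% had a lower difference than Lrrn2 and Lrrn3, so Lrrn3 lies near the edge of the cloud. For Lrrn4 the share was 95.2%. It entered the fit only through its labelled-null arrays, so nothing is read from its place.

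Several array-wide readings bear on these values. The Tbx1 probe set was not lower on the labelled-null arrays (7.59, 7.50 and 7.30, against 6.93, 7.31 and 6.92 in wild type). Which part of the gene was disrupted is not stated in the labels, so this set does not check them, and directions follow the labels. Labelled-null replicate 3 stood apart: 249 genes there exceeded the average of the remaining arrays by over 1, against 6 to 32 on each other array, and the mean of 7 measured placental markers was 9.19 there against 4.54 to 5.35 on the others. The bright Lrrn1 set and the brighter Pcdh8 set were each between the other labelled-null arrays there, while both dim Lrrn1 sets were lowest there. Crest mesenchyme markers such as Prrx1 and Twist1, which define most of the arch, averaged 11.26 to 11.33 in wild type and 11.31 to 11.35 in the labelled null, and 0 of 8 were called in limma (0 at an unadjusted p under 0.05).

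Core mesoderm markers read lower on the same arrays as Lrrn1 and Pcdh8. Of 6 measured, 5 had lower means on the labelled-null arrays, each with no overlap between groups, and the remaining one was Tbx1. Among all genes tested 3.25% were lower with no overlap. The marker list was chosen with earlier results of these data known, so the count is a description. The mean of the list was 6.62 to 6.78 on the wild-type arrays and 5.42 to 5.67 on the labelled-null arrays. Tcf21, a transcription factor of branchial muscle precursors, and Myf5, a muscle determination factor, fell and passed over all genes in limma (adjusted p = 0.0185 and 0.0492, n = 3 per genotype). Neither passed in limma when 1 wild-type array was left out, with adjusted p from 0.113 without replicate 2 to 0.203 without replicate 1 for Tcf21 and from 0.233 without replicate 3 to 0.461 without replicate 1 for Myf5. Myf5 also missed the threshold in limma with no filter (adjusted p = 0.0563), with values under 4 raised to 4 (0.0571), without the intensity trend (0.111), with array weights (0.0897) and after averaging probe sets (0.108). Averaging its probe sets brought Tcf21 from -1.53 to -0.67 (adjusted p = 0.366 in limma). In a tissue measured in bulk, fewer cells of a type and less RNA per cell cannot be told apart, and the part of core cell number in the Lrrn1 and Pcdh8 readings was not tested.

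Neuronal markers were given a place because Lrrn and protocadherin genes are widely expressed in neurons. Their list mean was 5.51 to 5.54 in wild type and 5.54 to 5.88 in the labelled null over 8 measured genes, so it was not lower in the labelled null. Stmn2, a stathmin of growing neurites, differed by 0.90 (SE 0.17) and Pou4f1, a sensory neuron factor, by 0.34 (SE 0.11), neither called in limma. The groups did not overlap for 3 of the 8, all higher, against 3.17% of all genes tested. At an unadjusted p under 0.05 in limma 2 read higher and 0 lower, where 2.68% of all genes were at that level in either direction. The list was chosen with earlier results known, so these counts are a description. Of the 8 genes 5 had higher and 3 lower means, the latter being the neurofilaments Nefl (-0.27, SE 0.32) and Nefm (-0.09, SE 0.17) and the neuronal tubulin Tubb3 (-0.05, SE 0.19). Somite markers averaged 5.67 to 5.90 in wild type and 5.78 to 5.90 in the labelled null over 5 measured genes, with Uncx above 4 on no array. Their part in the result was not tested.

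The genes whose pattern over the 6 arrays was most like that of Lrrn1 were ranked by Pearson correlation, a description that the genotype difference dominates. Tcf21 came first (r = 0.99), followed by Sytl2, a synaptotagmin-like trafficking protein (0.98), Ccna2, the mitotic cyclin A (0.98), Ids, a lysosomal sulfatase (0.98), and Kcnj14, a potassium channel (0.98). Of these Tcf21 alone had a difference as large as that of Lrrn1. It read 7.10, 7.01 and 7.33 in wild type and 5.76, 5.63 and 5.45 in the labelled null, a difference of -1.53 (SE 0.13). The others differed by -0.35, -0.10, -0.12 and -0.09, and their arrays of a genotype lay close together, with an SD of at most 0.0402 (Sytl2).

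For Pcdh8 the ranking gave Mdm1, a microtubule-binding protein (r = 0.99), Fat3, a giant cadherin (0.99), Wdr47, a protein of neuronal microtubules (0.99), Myod1, a muscle determination factor (0.99), and Cd72, a receptor of B cells (0.99). Myod1 was the one with a large difference, -0.84 (SE 0.16), reading 6.40, 6.62 and 6.65 in wild type and 5.39, 5.91 and 5.84 in the labelled null. It was lowest on labelled-null replicate 1, as were Pcdh8 and Myf5, which read 4.71 there against 5.91 and 5.22 on labelled-null replicates 2 and 3. With the genotype means taken out Pcdh8 correlated with Myod1 at 0.95 and with Myf5 at 0.86 over the 6 arrays, and with Tcf21 at -0.58. Mdm1, Fat3, Wdr47 and Cd72 gave 0.98, 0.96, 0.97 and 0.95, so such a value was not particular to muscle factors. Myod1 and these genes were picked by their correlation with Pcdh8, which favours high values here. The Pcdh8 correlations also lean on labelled-null replicate 1, where Pcdh8 read 3.04, under the filter level, against 4.86 and 4.65 on labelled-null replicates 2 and 3. With the genotype means taken out Lrrn1 gave 0.38 with Tcf21, -0.52 with Myod1 and -0.58 with Pcdh8. Over all 6 arrays Lrrn1 and Pcdh8 correlated at r = 0.85. Within each genotype, replicate 1 was the highest array for Lrrn1 and the lowest for Pcdh8, with Lrrn1 spread over 0.268 in wild type and 0.0577 in the labelled null.

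**Figure D4:**
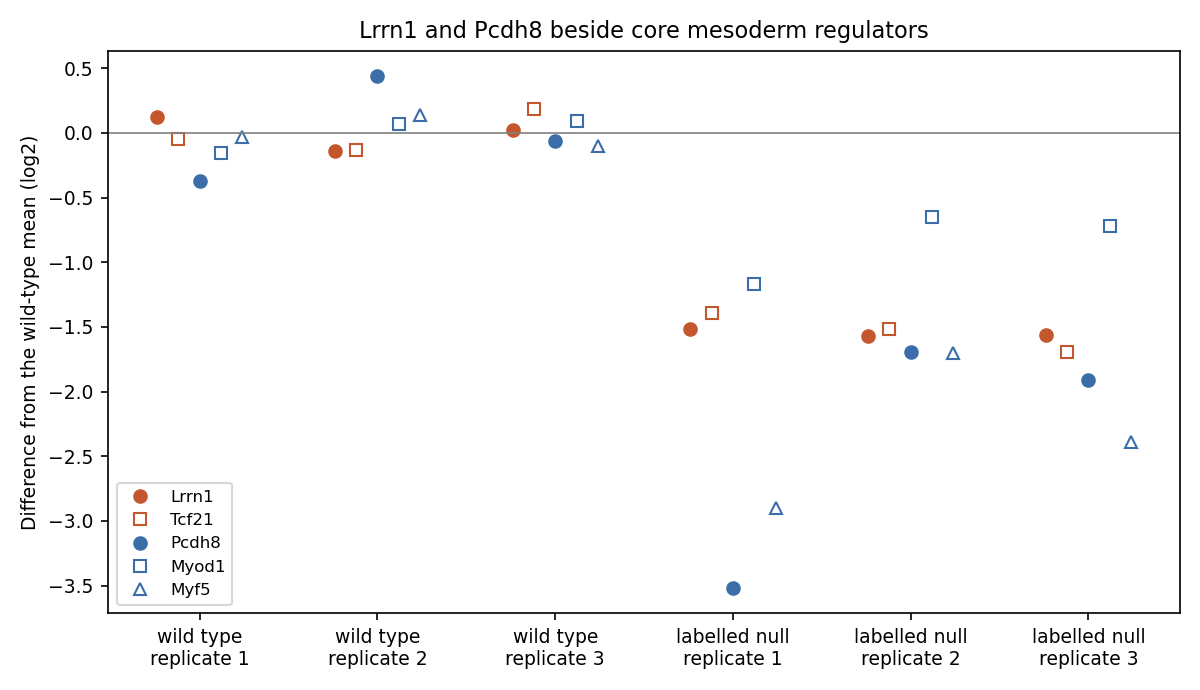
Difference of each array from the wild-type mean of the same gene (vertical axis, log2) for Lrrn1, Tcf21, Pcdh8, Myod1 and Myf5 on the 6 arrays; each point is 1 gene on 1 array. Pcdh8, Myod1 and Myf5 are lowest on labelled-null replicate 1, while Lrrn1 is nearly level over the labelled-null arrays, between 7.90 and 7.95 in log2 expression.

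Since Lrrn1 and Pcdh8 were chosen by their difference, a smaller one in other genes was largely set by that choice. With that limit, genes related to the members by protein family or by known pathway had no difference of that size. Over 6 such lists 97 distinct genes were tested and 0 were called in limma with Benjamini-Hochberg adjustment over all genes, with or without the replicate block. At an unadjusted p under 0.05, 2 read higher and 7 lower (6 lower without En2, which passed the filter in wild type alone), where 2.68% of all genes tested were at that level in either direction. The groups did not overlap for 15.5% of them, 3 higher and 12 lower (11 without En2), against 6.43% of all genes tested, 3.17% higher and 3.25% lower. Their median difference was -0.05, against -0.01 over all genes.

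Other leucine-rich repeat membrane proteins, among them the Flrt, Lingo, Lrig, Slitrk and Lrrtm families, had a median difference of 0.01 over 36 tested genes, with 19 means higher, 17 lower and 0 called in limma (at an unadjusted p under 0.05, 1 higher and 1 lower). The extremes were Rtn4rl1, a Nogo receptor homolog, at 0.55 (SE 0.22) and Lrig3, a regulator of receptor tyrosine kinases, at -0.27 (SE 0.09). Lrrtm2 and Lrrc4, both synaptic adhesion proteins, differed by -0.25 and -0.24. Flrt2 and Flrt3, fibronectin and leucine-rich repeat proteins that act in cell guidance, were bright (11.06 and 10.62 in wild type) and differed by -0.07 and -0.06. Slitrk1 and Rtn4rl2 were above 4 on no array. All these differences were smaller than that of the bright Lrrn1 set, a gene chosen by its difference.

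Non-clustered protocadherins and the related Fat, Dachsous and Celsr cadherins leaned to lower values without any call in limma: 15 of 19 tested genes had lower means, with a median of -0.10 and 0 called (1 lower at an unadjusted p under 0.05). Pcdh19, a delta-protocadherin like Pcdh8, read 8.57, 8.50 and 8.29 in wild type and 7.84, 8.08 and 8.05 in the labelled null. The groups did not overlap, and the difference was -0.47 (SE 0.12, adjusted p = 0.959 in limma). Pcdh10 differed by -0.26 (SE 0.18) and Pcdh9 by -0.18 (SE 0.12), with overlap, and Fat4, which pairs with Dachsous in planar polarity, by -0.21 (SE 0.14). Pcdh1 was the highest at 0.47 (SE 0.26), its largest value, 5.71, being on labelled-null replicate 3. The list median lay between -0.11 and -0.06 under every alternative run.

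Classical cadherins and catenins, the core of adherens junctions, had a median of 0.00 over 19 tested genes (from -0.06 to 0.05 under the alternatives) and 0 called in limma (1 lower at an unadjusted p under 0.05). Cdh15, the M-cadherin of muscle precursors, read 7.22, 6.99 and 6.95 in wild type and 6.49, 6.66 and 6.89 in the labelled null, a difference of -0.37 (SE 0.14, adjusted p = 1.00 in limma). Cdh4 differed by -0.48 (SE 0.26) and Ctnnd2, a neural catenin, by 0.18 (SE 0.10). Of the pathway by which Pcdh8 removes N-cadherin from the surface, Cdh2 itself differed by -0.15 (SE 0.09), the kinases Taok2 by 0.00 (SE 0.11), Map2k3 by -0.06 (SE 0.09) and Mapk14 by -0.02 (SE 0.07), with 0 of 4 called in limma (0 at an unadjusted p under 0.05).

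Segmentation genes of the paraxial mesoderm, where Pcdh8 is best known, had a median of -0.04 over 14 tested genes (from -0.09 to 0.01 under the alternatives) and 0 called in limma (2 lower at an unadjusted p under 0.05). The pair at that level were the forkhead factors Foxc1 (-0.54, SE 0.09, adjusted p = 0.293) and Foxc2 (-0.55, SE 0.10, adjusted p = 0.293 in limma), which are also expressed in head mesoderm and crest. Foxc1 read 10.10, 10.05 and 10.29 against 9.63, 9.56 and 9.64, and Foxc2 read 11.05, 10.88 and 10.81 against 10.498, 10.27 and 10.31. Neither overlapped between groups. Dll1, a Notch ligand, differed by -0.29 (SE 0.13). Mesp2, Ripply2 and Uncx, defining genes of forming somites, were above 4 on no array.

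Genes of the midbrain-hindbrain boundary, where Lrrn1 acts in the chick, had a median of -0.22 over 7 tested genes, or -0.05 after averaging the probe sets of each gene, and 0 called in limma (at an unadjusted p under 0.05, 1 higher and 2 lower). Gbx2, a homeobox factor, differed by -0.86 (SE 0.18, adjusted p = 0.543) and Otx2, its counterpart in the forebrain and midbrain, by 0.61 (SE 0.20, adjusted p = 1.00 in limma). En2, another homeobox factor, read 4.02, 4.20 and 4.23 in wild type and 3.45, 3.55 and 3.57 in the labelled null. It was tested only because the 3 wild-type arrays exceeded 4. High wild-type readings were thus a condition of its entering the fit, which favours a negative difference. Without it the list median was -0.20 and 1 gene was lower at an unadjusted p under 0.05. Fgf17 differed by -0.24 (SE 0.11). En1 and Wnt1 were above 4 on no array. Lfng, which Lrrn1 is known to regulate there, differed by -0.22 (SE 0.14) with overlap between the groups.

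**Figure D5:**
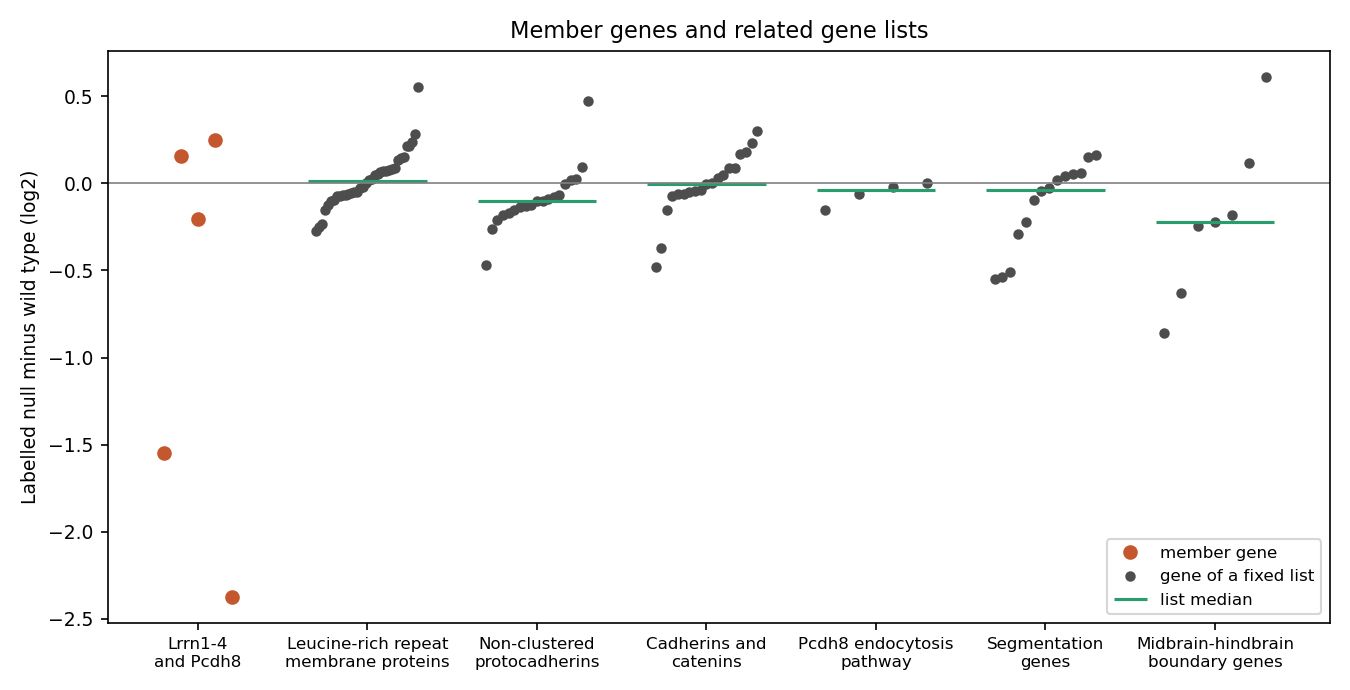
Labelled null minus wild type (vertical axis, log2) for the 5 members and for the tested genes of 6 related lists, each point 1 gene by its brightest probe set and each bar a list median. Lrrn1 (-1.55) and Pcdh8 (-2.37), which were chosen by their difference, lie below every listed gene, the lowest of which is Gbx2 at -0.86.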

How the data were processed

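Each array's deposited column holds a log2 value per probe set, made with GCRMA (version not stated) per the submitters' processing notes. That the scale is log2 was read from the values. Near background the size of a difference is uncertain, and precision is limited by the number of arrays. For a gene the set with the highest mean was used and kept if above 4 on at least 3 arrays, which left 16073 of 18193 genes, and 29935 probe sets were fitted separately under the same filter. The fits used limma 3.58.1 in R 4.3.3 (lmFit, eBayes with an intensity trend, genotype alone), with Benjamini-Hochberg adjustment over all features, and were tested on simulated data. Named genes were all member probe sets, up to 4 genes per list with the smallest p, and the 5 genes most like Lrrn1 or Pcdh8. Flrt2, Flrt3, Pcdh10 and the markers Prrx1, Twist1, Stmn2, Pou4f1, Nefl, Nefm and Tubb3 were named after their values were seen. The members and lists were chosen with earlier results of these data known.

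No pair of arrays was identical. Same-numbered arrays of both genotypes had deviations that correlated at 0.26, 0.13 and 0.14 over the genes tested and at 0.32, 0.09 and 0.16 over the probe sets tested. Differently numbered arrays gave -0.20 to 0.06 over genes and -0.25 to 0.13 over probe sets. The latter reached above the 0.09 of replicate number 2. The labels do not say what a number shares. The numbers were treated as a possible pairing over genes, so blocked values stand beside a result whose call they change. Alternatives were other filters, a floor, other normalizations, array weights, the block, averaging the probe sets of each gene and leaving out each array.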

Additional observations from a re-analysis of the deposited data

How the results depend on the processing

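6 genes passed in limma in all and 2 probe sets. The 6 became 2 with no filter, 2 when values under 4 were raised to 4, 2 without the intensity trend, 10 with the replicate block and 0 after averaging the probe sets of each gene, and 0 to 22 with each array left out in turn. The 2 probe sets became 4 with arrays centred on their medians, 4 with array weights and 14 with the replicate block, and 0 to 23 with each array left out. The lowest counts were without wild-type replicate 3 and the highest without labelled-null replicate 3. Without wild-type replicate 3 the adjusted p of Lrrn1 in limma was 0.0628. The block changed the call of Pcdh8 and of no other member. Lrrn1 and Pcdh8 were chosen by this contrast, so their calls describe that choice and are no test of it. Fixed lists held 0 called genes under every alternative run. With arrays left out, centred or quantile-normalized again, or low values raised, the difference of the bright Lrrn1 set lay between -1.62 and -1.49 and that of the brighter Pcdh8 set between -2.71 and -1.80. Lrrn2 and Lrrn3 kept their direction under every alternative. Lrrn4 did so wherever it had a value, and was not tested with the filter at 5. It passed the main filter only through its labelled-null arrays, so nothing is read from its direction. With values under 4 raised to 4, Lrrn4 differed by 0.13. Signal near 4 limits how well the size of the differences of Pcdh8, Lrrn4 and the dim Lrrn1 sets is known.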
